A study of Homo sapiens with 6 samples.

Results

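Imprinted genes are read mainly from the copy inherited from 1 parent. The windows described here hold 10 of them at 8 loci: H19 with IGF2, PEG3, MEST, PEG10, SNRPN, GNAS, DLK1 with MEG3, and PLAGL1. The windows were set by position on hg19, from 60 kb around MEST to 200 kb around SNRPN, and an ATAC-seq peak belonged to a locus when its midpoint lay in the window. They held 306 of the 478912 peaks in the 6 deposited lists. After overlapping peaks of all libraries were merged, the windows held 94 of 157560 regions. PEG3 had none, so that 7 of the 8 loci carry values.

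ATAC-seq maps open chromatin with the Tn5 transposase, which cuts and tags accessible DNA. H9, an established line of human embryonic stem cells, was differentiated to ventricular-like cardiomyocytes and sampled at day 15. There were 3 control libraries and 3 with ZNF436 knocked down, which encodes a zinc finger protein of the KRAB class. Each library came from a differentiation of its own, and all from this 1 line. The knockdown method and the control construct were not given in the sources used here. Control lists held 50719 to 68342 peaks and the knockdown lists 87871 to 115864, and every knockdown list was longer than every control list. Sequencing depth is unknown, so that list length, depth and the knockdown cannot be told apart in a peak number. The cardiac identity of the cells and the knockdown of ZNF436 itself were not analysed here.

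Imprinting rests on DNA methylation set differently in egg and sperm, at short control regions where later the methylated copy is closed and the other open. KRAB zinc finger proteins take part in this: ZFP57 and ZNF445 bind the methylated copy and recruit the repressor TRIM28, which keeps the mark through the early embryo. Most KRAB zinc finger proteins are known instead for silencing transposons, and PEG10 is itself a gene derived from a retrotransposon. Both parental copies give reads in ATAC-seq, and the peak lists do not separate them. In bulk libraries, a site open in fewer cells and a site less open in each cell cannot be told apart either.

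The letters of the promoters were read from RefSeq (GRCh38.p14), which had promoter windows of 300 bases for 6 of the 10 genes (GNAS, H19, MEG3, MEST, PLAGL1 and SNRPN; 24 windows, some of which overlap). The peaks are on hg19 and were not placed on these windows. The hexamer TGCCGC, known as the core of the ZFP57 site, was found on either strand in 11 of the 24 windows, in 5 of the 6 genes. Of all RefSeq promoters, counted one by one, 16.7% held the hexamer, and no such share per gene was computed. The MEG3 windows with a match overlap each other, as do some of the MEST windows. The longer motifs of YY1 and of the CTCF core, also searched on both strands, were in 0 of the 24 windows, and in 0.849% and 0.0655% of all promoters, so that few windows would hold them; nothing about either factor follows from this. The CpG count of the 24 windows ran from 2 to 43 with a median of 17.5, beside a median of 14 over all promoters. A match in these letters is a description and does not show binding. The 3 genes with the most hexamer matches in a window, a rule set after the matches were seen, are shown with that window because the hexamer is the letter pattern tied to imprint protection, 5′ to 3′ on the gene's strand, with the matches in capitals (GCGGCA is the hexamer read on the other strand, and adjacent capitals can be matches that overlap or touch). The MEST window is chr7:130491835-130492134 on the plus strand, the SNRPN window chr15:24954737-24955036 on the plus strand and the PLAGL1 window chr6:144008210-144008509 on the minus strand, all on GRCh38.p14.
MEST: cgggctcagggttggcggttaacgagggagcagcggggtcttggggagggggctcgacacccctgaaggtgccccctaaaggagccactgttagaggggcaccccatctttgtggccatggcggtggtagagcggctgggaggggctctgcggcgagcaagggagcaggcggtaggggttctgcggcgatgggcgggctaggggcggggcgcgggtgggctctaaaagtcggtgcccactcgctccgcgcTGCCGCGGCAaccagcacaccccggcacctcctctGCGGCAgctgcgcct
SNRPN: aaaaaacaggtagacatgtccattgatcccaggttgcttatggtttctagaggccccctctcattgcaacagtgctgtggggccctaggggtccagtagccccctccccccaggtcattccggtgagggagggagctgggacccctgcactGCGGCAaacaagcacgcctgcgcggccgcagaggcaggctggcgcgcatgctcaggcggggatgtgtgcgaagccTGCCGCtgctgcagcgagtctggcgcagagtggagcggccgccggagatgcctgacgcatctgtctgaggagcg
PLAGL1: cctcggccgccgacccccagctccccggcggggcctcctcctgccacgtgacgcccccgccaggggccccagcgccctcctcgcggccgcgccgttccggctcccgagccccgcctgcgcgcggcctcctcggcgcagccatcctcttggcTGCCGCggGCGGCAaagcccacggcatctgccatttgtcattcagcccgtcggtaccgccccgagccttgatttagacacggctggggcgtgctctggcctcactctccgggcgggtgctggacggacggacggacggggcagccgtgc

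Over the loci together, each knockdown library had more peaks than any control library, and the ratio was below that of the lists as a whole. The 8 windows held 40, 44 and 43 peaks in control replicates 1, 2 and 3 and 59, 64 and 56 in knockdown replicates 1, 2 and 3. The means were 42.33 ± 2.08 and 59.67 ± 4.04 (SD, n = 3 each), a ratio of 1.409 ± 0.118. The whole lists had a ratio of 1.773 ± 0.379. Per 10000 peaks of a list, the windows took 7.89, 8.20 and 6.29 peaks in control and 5.09, 6.25 and 6.37 in knockdown, and these shares overlap between the groups. Bases covered by peaks in the windows were 13912, 13506 and 16447 bp in control and 27190, 26855 and 23046 bp in knockdown, without overlap. Their means were 14622 ± 1594 and 25697 ± 2302 bp (SD, n = 3 each), a ratio of 1.757 ± 0.248 beside 1.852 ± 0.336 for the genome. When each list was reduced to its 50719 strongest peaks, the length of the shortest list, the ratio of peak numbers in the windows was 0.832 ± 0.141 and that of bases 1.279 ± 0.134. The genome then had 1 by construction for peaks and 1.385 ± 0.105 for bases. In equal lists the peak ratio thus lay below 1 and the ratio of bases above 1.

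**Figure D1:**
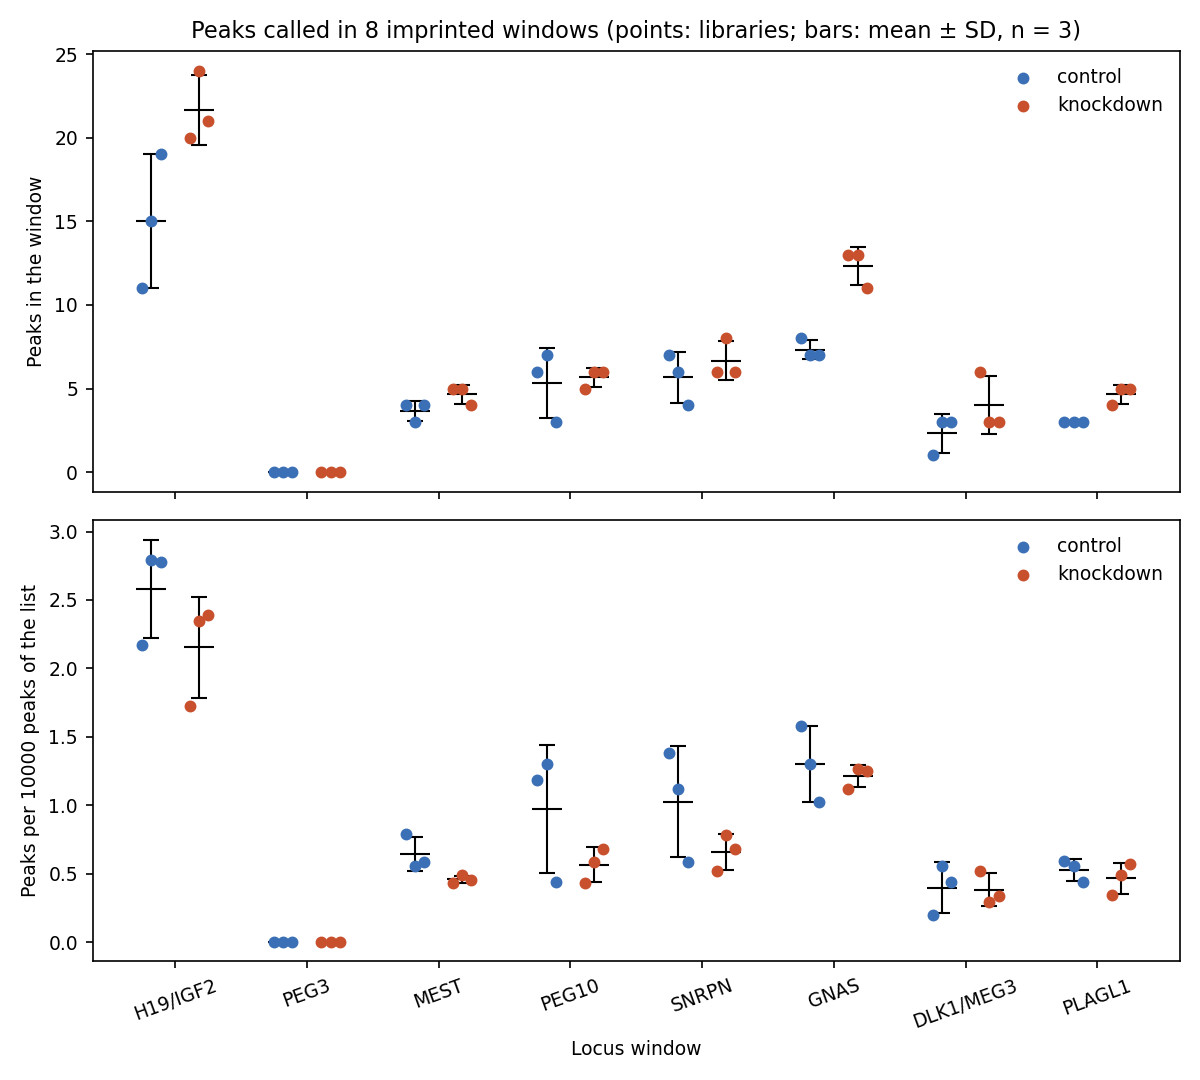
Peaks per window (top) and per 10000 peaks of the library's list (bottom) for the 8 loci; points are libraries, bars the mean ± SD of 3 libraries per group. Knockdown lies wholly above control at H19/IGF2, GNAS and PLAGL1 in number and at no locus in share, and PEG3 is at 0 throughout.

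Peak numbers in knockdown lay above those in control without overlap at 3 of the 8 loci (H19/IGF2, GNAS and PLAGL1) and below at 0. This held for 44.4% of all features (the loci and the 100 kb bins of the remaining genome whose mean was 2 peaks or more), and the reverse for 0.32%. PEG3, with 0 peaks, is not among these features and could not separate the groups. The 3 of the 7 loci with peaks are near the background. As shares of the list, 0 of 8 loci were higher without overlap (background 14.8%) and 1, MEST, was lower (background 15.9%). In lists of equal length no locus separated the groups in either direction (background 6.8% higher and 7.46% lower). By covered bases, knockdown was above control at 6 of the 7 loci with peaks, all but DLK1/MEG3, beside 82.4% of all features. It was below control at 0 (background 0.402%). This count was chosen after the values were seen. Permutation tests of single loci below are exact and two-sided, and 0.1 is the smallest p that 3 against 3 can give, so that none of them can pass 0.05 with or without adjustment. Each locus was compared on 8 such measures: peaks, share, covered bases, peaks in equal lists, regions called, peaks in the flanks of 500 kb, and peaks per flank peak with flanks of 500 kb and of 1000 kb.

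No locus passed the test across the genome. The 7 loci with peaks were fitted with all 100 kb bins as shares of the list (limma, Benjamini-Hochberg adjustment over 13431 features, threshold 0.05). Of all features, 1.6% were higher and 4.27% lower, and of the 7 loci 0 were higher and 0 were lower. At an unadjusted p under 0.05 there were 0 of the 7, the lowest limma p being 0.0552 at MEST, and 3534 of all features. All 7 estimates were below 0, from -0.12 at GNAS and DLK1/MEG3 to -0.68 at PEG10 on the log2 scale of (peaks + 0.5) per list total; the median over all features was -0.07. With no scaling to the list all 7 were above 0, beside a median of 0.76 over all features, so that their common sign differed between the scalings. Relative to the median of each fit the 7 changes were the same in both scalings, from -0.05 at GNAS and DLK1/MEG3 to -0.61 at PEG10. Without scaling GNAS passed the threshold, with a log2 change of 0.71 (limma adjusted p = 0.0198; 0.0198 to 0.948 over its alternatives), beside 43.3% of all features. Against the flanks of 500 kb, none of the 7 separated the groups. With 1000 kb, an alternative, MEST did, with a ratio of 0.705 (exact permutation p = 0.1). For peaks per flank peak no share over all features is available here, so these counts have no background.

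**Figure D2:**
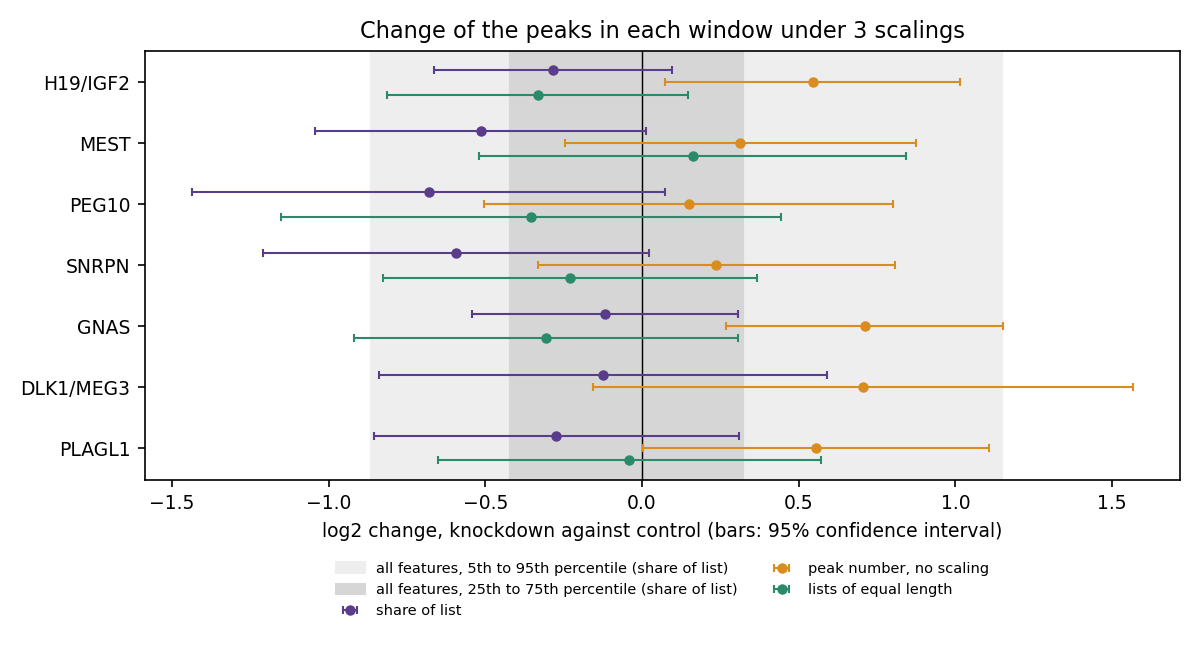
Log2 change of peaks in knockdown against control for the 7 loci with peaks, as share of the list, unscaled and in lists of equal length (points: limma estimate; bars: 95% confidence interval; DLK1/MEG3 had too few peaks in the equal lists); shading gives the spread of all features as shares. As shares every point lies left of 0, and unscaled every point lies right of it.

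H19 and IGF2 form the classic pair of imprinting: H19 is a long non-coding RNA read from the maternal copy, and IGF2 encodes insulin-like growth factor 2 and is read from the paternal copy, through enhancers that both share. Their window (chr11:2000001-2180000) held the most peaks of the 8; per 100 kb it had 8.33 in control and 12.04 in knockdown, where GNAS had 7.33 and 12.33. It held 11, 15 and 19 peaks in control replicates 1 to 3 and 20, 24 and 21 in knockdown replicates 1 to 3. The lowest knockdown value stood 1 peak above the highest control value, so the groups touch but do not overlap (means 15 ± 4 and 21.67 ± 2.08, SD, n = 3 each; exact permutation p = 0.1). As a share of the list the log2 change was -0.28 ± 0.18 (SE; 95% interval -0.66 to 0.10; limma adjusted p = 0.323). The covered bases were 3651, 3627 and 5419 bp in control and 8730, 10202 and 7616 bp in knockdown. Every knockdown library covered more than any control library here, with a ratio of group means of 2.091. As a share of all covered bases the log2 change was 0.17 (limma adjusted p = 0.396), opposite in sign to that of the peak share. In each library the 500 kb on both sides held 41 to 64 peaks in control and 69 to 89 in knockdown. Peaks per flank peak overlapped, with means of 0.278 ± 0.017 for control and 0.268 ± 0.037 for knockdown (exact permutation p = 0.9).

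The regions of the H19/IGF2 window lay unevenly, by counts chosen after the positions were seen. Of its 42 regions, 17 lay within the 25 kb from chr11:2000094, the fullest such stretch, which starts at the window's edge. The longest stretch between neighbouring regions was 52.3 kb. No such counts over the genome are available here, so whether this is unusual was not tested. In all 6 libraries 7 of the 42 were called, beside 18.25% of all regions, while 20 had a peak in 1 library alone, beside 38.3%. The score percentile is the rank of a peak by the authors' own score within its list. The shared region whose lowest score percentile was highest, chr11:2000094-2000756, ranked at 71.1, 72.0 and 80.1% of the control lists and at 93.5, 90.2 and 78.7% of the knockdown lists. Percentiles of lists of different length are not comparable between groups; they place the region in the upper part of every list. The widest shared region was chr11:2019081-2020506, which spans 1426 bp over all libraries. Peaks covered 130, 190 and 726 bp of it in control replicates 1, 2 and 3 and 1287, 1095 and 883 bp in knockdown. Control replicate 3 stood near the knockdown values and the other control libraries far below. Relative to the median region of each library, the width differed by 1.496 ± 0.497 on the log2 scale (SE; limma adjusted p = 0.169). Without control replicate 3 the difference was 2.16 (limma adjusted p = 0.0226; 0.0226 to 0.418 over its alternatives). In that setting 0.97% of all shared regions were wider, beside 0.0765% with all libraries. A region near this widest one, chr11:2023230-2023677, was in every knockdown list and in none of the control lists, with 268, 315 and 227 bp. Its scores were low in its own lists, at percentiles 29.3, 26.4 and 10.7.

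DLK1, a membrane protein related to the Notch ligands and read from the paternal copy, and MEG3, a maternally read long non-coding RNA, form a second pair of this kind. Their window (chr14:101180001-101340000) held few peaks: 1, 3 and 3 in control and 6, 3 and 3 in knockdown. Only knockdown replicate 1 exceeded the control values (means 2.33 ± 1.15 and 4 ± 1.73, SD, n = 3 each; exact permutation p = 0.6). Of its 8 regions only chr14:101242199-101242657 was called in all 6 libraries, beside 18.25% of all regions. It had 424, 143 and 362 bp covered in control and 448, 397 and 382 bp in knockdown. The share of the list differed by -0.12 ± 0.34 (log2, SE; limma adjusted p = 0.839). With 1.46 peaks per 100 kb in control and 2.5 in knockdown, this window lay below the mean 100 kb bin of the genome (1.89 and 3.35) and above the median bin (1 and 2).

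PEG10 is the gene derived from a retrotransposon and needed for the placenta. Its window held the strongest of the regions in these loci that all libraries called. No region was placed on a gene here, and SGCE is the next protein-coding gene below PEG10 in RefSeq. The region chr7:94285203-94288000 spans 2798 bp and ranked at 95.9, 95.9 and 96.7% of the control lists and 96.3, 98.4 and 97.8% of the knockdown lists. It lay near the top of every list. The bases covered were 1732, 1736 and 1444 bp in control and 2751, 2283 and 2338 bp in knockdown, without overlap. Relative to the median shared region of each library this was a log2 difference of 0.04 ± 0.15 (SE; limma adjusted p = 0.907). The caller split this region into 3, 4 and 2 peaks in control and 1, 3 and 3 in knockdown, so that the peak number of the window counts pieces as well as sites. The window (chr7:94200001-94320000) held 6, 7 and 3 peaks in control and 5, 6 and 6 in knockdown, in 4, 4 and 2 regions and 5, 4 and 4 regions. Control replicate 3 was the lowest in both counts. The share of the list differed by -0.68 ± 0.35 (log2, SE; limma adjusted p = 0.231), and by -1.14 without control replicate 3 (limma adjusted p = 0.0245; 0.0245 to 0.682 over its alternatives). In that setting 6.3% of all features were lower. The flanks of PEG10 held 17, 14 and 18 peaks in control and 37, 40 and 28 in knockdown. Peaks per flank peak had means of 0.340 ± 0.167 for control and 0.166 ± 0.042 for knockdown (exact permutation p = 0.2), and the values overlap.

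MEST, a paternally read gene for a protein of the hydrolase fold, lies on the same chromosome. All 6 regions of its window fell within 25 kb. The window (chr7:130100001-130160000) held 4, 3 and 4 peaks in control and 5, 5 and 4 in knockdown, which overlap (exact permutation p = 0.3). As shares of the list, control had 0.789, 0.559 and 0.585 and knockdown 0.432, 0.488 and 0.455 peaks per 10000, and here knockdown lay wholly below (exact permutation p = 0.1; limma log2 change -0.52 ± 0.25, SE, adjusted p = 0.198). In lists of equal length the log2 change was 0.16 (limma adjusted p = 0.757), with the opposite sign. The shared region chr7:130125854-130126769 was covered over 643, 460 and 740 bp in control and 857, 811 and 786 bp in knockdown. Its width relative to the median region differed by -0.10 ± 0.20 (log2, SE; limma adjusted p = 0.81).

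SNRPN encodes a protein of the splicing machinery and is read from the paternal copy, in the region lost in Prader-Willi syndrome. Its window (chr15:25050001-25250000) held 7, 6 and 4 peaks in control and 6, 8 and 6 in knockdown, with control replicate 3 the lowest and no separation of the groups. The share of the list differed by -0.59 ± 0.29 (log2, SE; limma adjusted p = 0.204). It passed the threshold without control replicate 3 (-0.93, limma adjusted p = 0.0389), a setting in which 6.3% of all features were lower. It also did so among the peaks above the middle rank of each list (-0.83, limma adjusted p = 0.0229), where 16.2% of all features were lower. Over its alternatives the adjusted p ran from 0.0229 to 0.577. Of its 8 regions, 4 were called in all 6 libraries, beside 18.25% of all regions. Of the 8, 1 had a peak in 1 library alone, beside 38.3%. The widest shared region, chr15:25201018-25202342, had 714, 654 and 598 bp covered in control and 981, 995 and 1071 bp in knockdown. Its neighbour chr15:25199925-25200546, named after its values were seen, had 377, 488 and 455 bp in control and 317, 407 and 445 bp in knockdown. These regions lie less than 1 kb apart, and covered bases separated the groups in the former only. Relative to the median region, the log2 differences were 0.09 ± 0.19 and -0.72 ± 0.26 (SE; limma adjusted p = 0.822 and 0.191). The shared region with the best lowest percentile was chr15:25103823-25104621, at 75, 80.2 and 89.2% of the control lists and 90.8, 90.5 and 92.5% of the knockdown lists. The flanks of this window were poor in peaks, with 7 to 9 in control and 8 to 13 in knockdown.

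GNAS encodes the stimulatory G protein alpha subunit, and its locus makes several transcripts, read from the maternal, the paternal or both copies. The window (chr20:57400001-57500000) held 8, 7 and 7 peaks in control and 13, 13 and 11 in knockdown, so that every knockdown library lay at least 3 peaks above control (means 7.33 ± 0.58 and 12.33 ± 1.15, SD, n = 3 each; exact permutation p = 0.1). The ratio of 1.682 was close to that of the flanks, 1.769 (30.33 ± 8.5 and 53.67 ± 7.57 peaks, SD, n = 3 each). As a share of the list the log2 change was -0.12 ± 0.20 (SE; 95% interval -0.54 to 0.31; limma adjusted p = 0.732), and 0.03 without control replicate 1. In lists of equal length the window held 8, 7 and 6 peaks in control and 7, 4 and 6 in knockdown. GNAS had 18 regions, 12 of them within 25 kb, and 12 were called in more knockdown than control libraries against 2 the other way, near the 65.37% and 12.14% of all regions. The regions chr20:57445432-57445654 and chr20:57473615-57474016 were in every knockdown list and in none of the control lists. The former ranked at percentiles 65.2, 49.3 and 63.4 of the knockdown lists and the latter at 23.2, 31.9 and 24.7. The shared region chr20:57482823-57483276 ranked at 75, 83.0 and 91.5% of the control lists and 90.4, 92.2 and 90.9% of the knockdown lists. The widest shared region, chr20:57465371-57466654, had 837, 643 and 931 bp covered in control and 728, 908 and 946 bp in knockdown, which overlap; its relative width differed by -0.44 ± 0.20 (log2, SE; limma adjusted p = 0.272).

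PLAGL1 and PEG3 both encode zinc finger proteins read from the paternal copy. Every control list had 3 peaks in the PLAGL1 window (chr6:144250001-144400000), and the knockdown lists had 4, 5 and 5, without overlap (exact permutation p = 0.1). Its share of the list differed by -0.27 ± 0.27 (log2, SE; limma adjusted p = 0.546). The region chr6:144280072-144280516 was in every knockdown list, at percentiles 39.8, 63.1 and 31.2, and in none of the control lists. The shared region chr6:144384643-144385573 covered 446, 485 and 724 bp in control and 641, 622 and 887 bp in knockdown, which overlap. The other shared region, chr6:144294222-144294851, was covered over 409, 561 and 501 bp in control and 398, 448 and 296 bp in knockdown, which overlap. Its relative width had the lowest log2 difference of the 22 shared regions, -0.92 ± 0.26 (SE; limma adjusted p = 0.13), and it is named for that.

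The PEG3 window (chr19:57300001-57370000) held 0 peaks in each of the 6 libraries. The nearest regions lay 117.3 kb below the window (chr19:57182490-57182700, called in 1 control library) and 222.9 kb above it (chr19:57592933-57593074, called in 1 knockdown library), which leaves 410.2 kb without a peak. Of the 6072 stretches between neighbouring regions on chromosome 19, 2 were this long or longer, this one included. They made up 5.97% of the chromosome's span, most of it in the other of the 2. Over chromosomes 1 to 22 and X, 136 stretches were this long or longer and made up 5.63%. By number these were 0.03% and 0.09% of the stretches. Whether any of them spans a centromere or an assembly gap was not examined, so the shares of the span do not describe stretches like this one. On chromosome 19, 10.32% of 100 kb bins held no peak in any library, against 16.91% over all chromosomes. The flanks of the PEG3 window held 11, 15 and 15 peaks in control and 12, 13 and 11 in knockdown. The numbers in the peak names of each list run without a gap. The stretch was measured after the 0 was seen. The lists show that no peak was called there; whether reads can be mapped to the stretch was not tested.

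**Figure D3:**
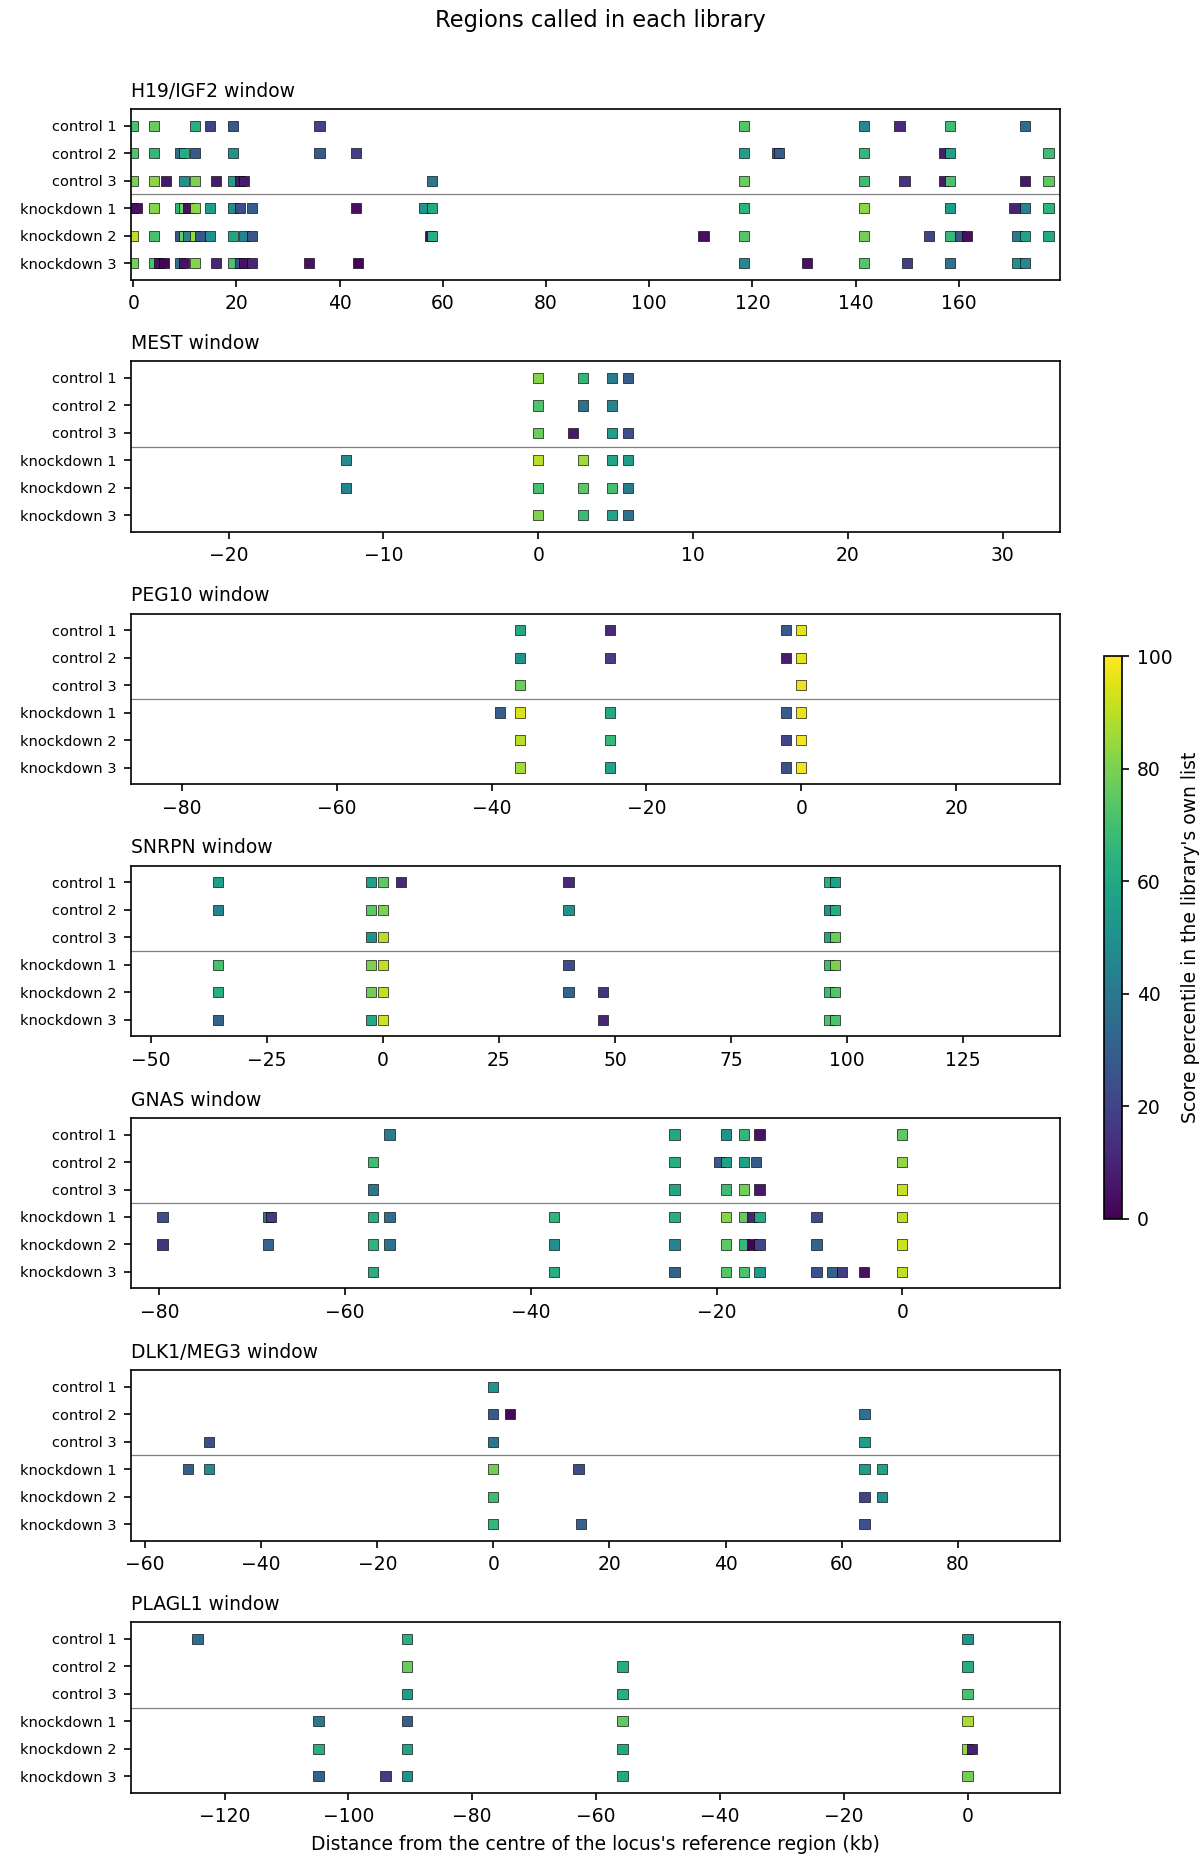
Regions called in each library at the 7 loci with peaks, by distance (kb) from the centre of the shared region whose lowest score percentile was highest; squares are called regions, coloured by the score percentile in the library's own list. Shared regions form vertical columns through all 6 rows, as at PEG10 and MEST. H19/IGF2 and GNAS, which have the most regions, also hold many squares in 1 or 2 rows. Regions with a peak in 1 library alone were 20 of 42 at H19/IGF2 and 6 of 18 at GNAS, beside 38.3% of all regions.

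Of the 94 regions, 22 (23.4%) were shared by all 6 libraries, beside 18.25% of the genome, and 36 (38.3%) had a peak in 1 library alone, beside 38.3%. Present in every knockdown list and in none of the control lists were 4 (4.26%; background 7.72%), at H19/IGF2, GNAS (2) and PLAGL1. The reverse was seen for 0 (background 0.131%). More knockdown than control libraries called 54 regions (57.45%, genome 65.37%), and more control libraries called 13 (13.83%, genome 12.14%). In lists of equal length 0 of 54 regions were called in knockdown only, beside 3.07% of the genome. The pattern of 3 knockdown libraries with 1 control library, which made up 7.63% of all regions, was seen at 1 of the 94, and that of 3 with 2 control libraries at 11 (11.7%, genome 6.52%); these 2 patterns were singled out after their values were seen and have no test.

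**Figure D4:**
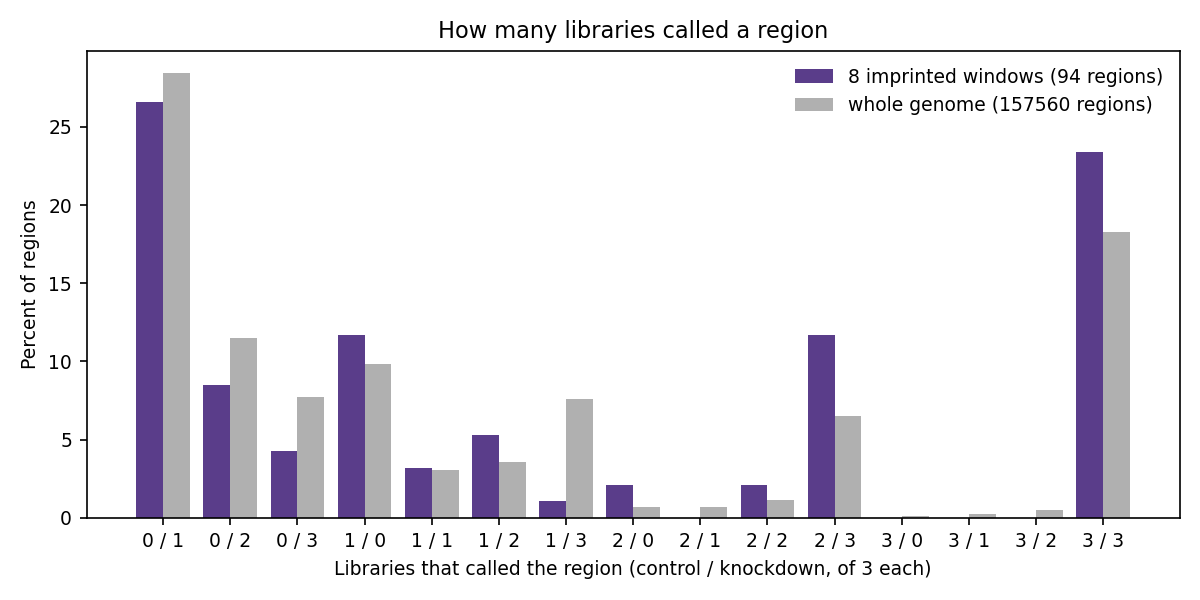
Percent of regions by how many control and knockdown libraries called them (x axis: control / knockdown, 3 libraries each), for the 94 regions of the imprinted windows and for all 157560 regions. The most frequent patterns are 1 knockdown library (26.6% in the windows, 28.45% in the genome) and all 6 libraries (23.4% and 18.25%).

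The 22 regions called in all 6 libraries gave a width in every library. Their median width over all libraries was 731 bp, from 439 to 2798 bp, beside a median of 873 bp for the 28749 such regions of the genome. Their lowest score percentile had a median of 51.9, beside 61.9. By a count chosen after the values were seen, covered bases were higher in knockdown without overlap in 9 of the 22 (background 47.2%) and lower in 0 (background 0.804%). Once each library was centred on its median region, 0 of the 22 were wider and 0 narrower in knockdown (limma, Benjamini-Hochberg adjustment over 28749 regions), beside 0.0765% and 0.111% of all. At an unadjusted p under 0.05 there were 4 of the 22, and 5503 of all regions. Without centring, 3597 of all 28749 regions were wider, and 3 of the 22, a share near that background: the PEG10 region chr7:94285203-94288000 (log2 difference 0.59, limma adjusted p = 0.0301; up to 0.996 over its alternatives) and the SNRPN regions chr15:25103823-25104621 (1.09, adjusted p = 0.0384; up to 0.612) and chr15:25201018-25202342 (0.64, adjusted p = 0.0392; up to 0.988). The median region of a library covered 448 to 528 bp in control and 658 to 727 bp in knockdown, a shift that uncentred widths include.

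**Figure D5:**
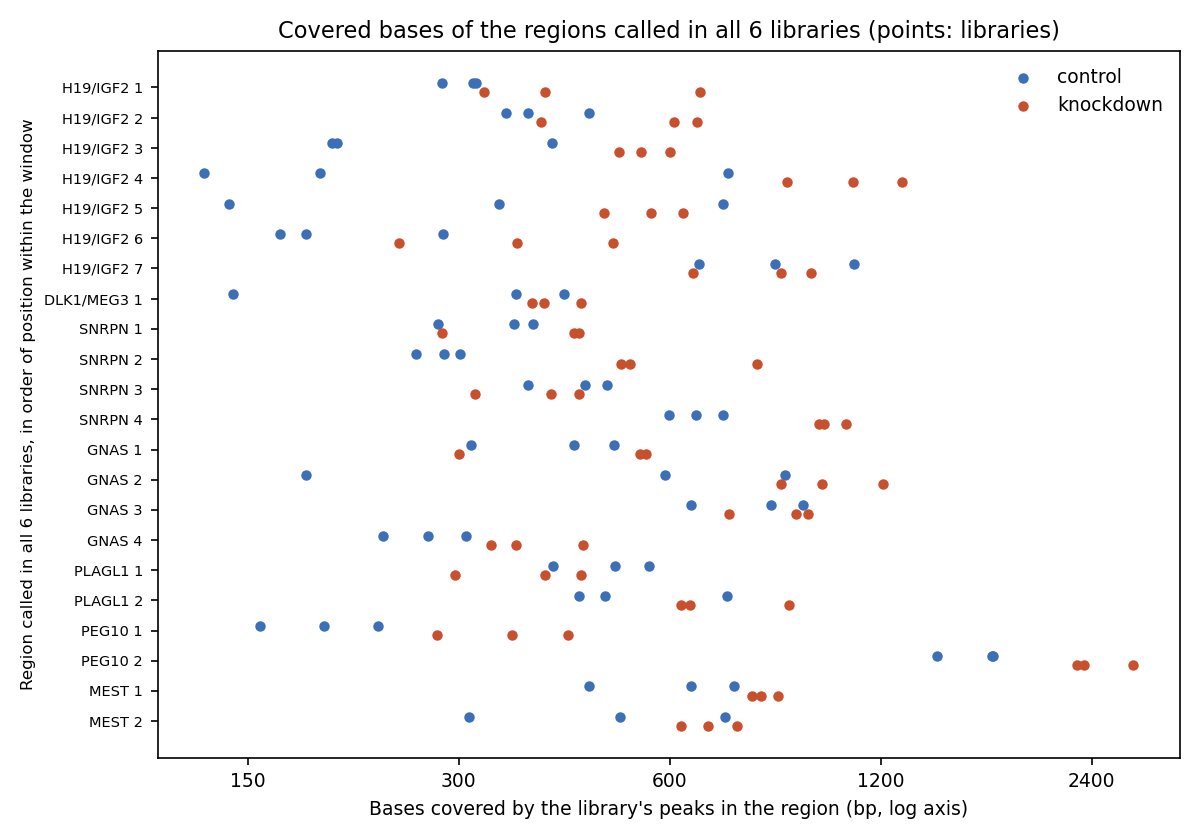
Bases covered by each library's peaks (bp, log axis) in the 22 regions called in all 6 libraries, listed by locus and position; points are libraries. Knockdown points lie wholly to the right of control points in 9 regions, among them the PEG10 region from 1444 to 2751 bp, and wholly to the left in 0.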

How the data were processed

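ATAC-seq peaks of 3 control and 3 ZNF436 knockdown libraries were used. Each deposited list gives positions and a score per peak, an integer of the authors' peak caller. Peak names begin with MACS and carry 1 library's name, per the files. The submitters' processing notes name Bowtie2 2.4.5, bedtools 2.30.0 and hg19; for caller version, threshold, Tn5 shift and duplicate removal, nothing was stated there. Replicates were separate differentiations, per the labels' protocols.

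Peaks were counted by midpoint in the 8 windows and in 100 kb bins of chromosomes 1 to 22 and X that touch no window, as log2((peaks + 0.5) / list total × median total). Features with a mean of at least 2 peaks entered limma 3.58.1 (trended, robust; R 4.3.3) with Benjamini-Hochberg adjustment. Peaks overlapping by at least 1 bp were merged, and log2 covered bases of regions called in all 6 libraries, centred on each library's median, were fitted likewise. The script was run on simulated data, and a first simulation with a larger spread than the lists show recovered few changed features. Its spread was then lowered to the same ratio of variance to mean for every feature, which was not matched to single loci. The analysis was not altered. The share recovered is not given here, so the check lends no support to the values of single loci. That check held no changes in sparsely filled features. Ratio SDs are propagated from the group SDs. Other steps used Python 3.11.15, with exact permutation tests from scipy 1.17.1. Score percentiles rank a peak within its own list.

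Every locus is named. Regions were named by rule: per locus the shared region with the highest lowest percentile, the widest shared region, those called in 1 group only, and those past the width threshold; others named were chosen after their values were seen. The loci, lists and tests were chosen with earlier results of these data known. Alternatives were other scalings, list lengths, filters, bin sizes, merging rules, leaving out each library, and a replicate block. A wider planned list of imprinted genes needs an hg19 annotation and was not analysed here.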

Additional observations from a re-analysis of the deposited data

How the results depend on the processing

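Of 107 values of the 7 loci under alternatives, 90 kept the sign and their side of the threshold, 3 kept the sign and passed it, and 14 changed sign, of which GNAS without scaling also passed. The 3 were PEG10 (-1.14) and SNRPN (-0.93) without control replicate 3 and SNRPN among the peaks above the middle rank of each list, called upper-ranked here (-0.83). Without scaling the signs turned at H19/IGF2 (0.55), MEST (0.31), PEG10 (0.15), SNRPN (0.24), GNAS (0.71), DLK1/MEG3 (0.71) and PLAGL1 (0.56). By covered bases they turned at H19/IGF2 (0.17) and DLK1/MEG3 (0.033), and at MEST in equal lists (0.16) and among upper-ranked peaks (0.023). With 1 library left out, GNAS ran from -0.278 to 0.027 (above 0 without control replicate 1) and DLK1/MEG3 from -0.446 to 0.124 (above 0 without control replicate 2 or knockdown replicate 2). Scaling to the list moves all features of a library alike, so relative to the median of all features the 7 values did not change. For the other turns the cause was not tested.

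Loci higher in knockdown numbered 0, and 1 without scaling, beside 1.6% and 43.3% of all features. Loci lower numbered 0, 1 among upper-ranked peaks and 0 to 2 when 1 library was left out. Of all features, 4.27%, 16.2% and 0.492 to 6.3% were lower in these settings. Regions called in knockdown only numbered 4, and 0 with equal lists, 1 among upper-ranked peaks, 12 of 94 when 2 of 3 libraries sufficed and 4 to 10 with 1 library left out (10 of 83 without knockdown replicate 3). The same shares over all regions were 7.72%, 3.07%, 9.92%, 19.2% and 9.06 to 15.64% (15.64% without knockdown replicate 3). Those in control only numbered 0, 2 when 2 of 3 sufficed and 0 to 1 with 1 library left out. Over all regions the shares in control only were 0.13%, 0.84% and 0.17 to 0.53%. The peak ratio was 1.409 and 0.832 with equal lists, and that of bases 1.757 and 1.279. Wider shared regions numbered 0, 3 without centring and 0 to 1 with 1 library left out. Loci with knockdown above control numbered 3, and by alternatives chosen after seeing the data 0 as shares, 0 with equal lists, 1 among upper-ranked peaks and 6 by bases (3 to 4 with 1 library left out); those below numbered 0, and 1 as shares. Over all features, 44.4% lay above by peak number, 14.8% as shares, 6.8% with equal lists and 82.4% by bases. Below lay 0.32% by peak number and 15.9% as shares. For upper-ranked peaks and with 1 library left out, no such share is available here. The 44.4% is from all libraries and full lists and is not a background for those counts. In lists of equal length and among upper-ranked peaks DLK1/MEG3 had too few peaks for a test, as had MEST, DLK1/MEG3 and PLAGL1 at a mean of at least 5 peaks.

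With the replicate number as a block, 0 loci were higher and 0 lower, and the ratios were 1.411 and 1.781. Deviations of same-numbered libraries correlated by -0.02, 0.03 and 0.01, so the numbers are not shown to pair them. Of all features, 291 were higher and 638 lower with the block, against 215 and 574. With 1 library left out, higher features numbered 3 (without knockdown replicate 3) to 690 (without control replicate 3) and lower ones 61 (without knockdown replicate 1) to 877. Under the other settings they numbered 112 (a mean of at least 5 peaks) to 5816 (no scaling) and 34 (no scaling) to 1227 (upper-ranked peaks). Of all shared regions, 22 were wider and 32 narrower; with 1 library left out these numbered 0 to 279 and 0 to 410, and without centring 3597 and 46. Depth is unknown and limits every count.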
